A study of Canis lupus familiaris with 8 samples.

Results

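Type IV collagen is the network-forming collagen of basement membranes. All probe sets of the array whose platform annotation gives a symbol from COL4A1 to COL4A6 were taken, which is 14 probe sets of 6 genes out of 10549 probe sets of 6540 named genes. RNA came from the frozen anterior mitral valve leaflet of dogs, with 1 Affymetrix array for each dog. The 4 affected dogs had degenerative mitral valve disease (DMVD), in which the leaflets thicken and lose their shape; they came from different breeds, with affected 1 from the breed Lhasa apso, affected 3 from the breed Dachshund, and both affected 2 and affected 4 from the breed Miniature poodle. The 4 control dogs were beagle crosses, so disease and breed cannot be told apart. The labels call the dogs of a group biological replicates and give neither age nor sex, and the tissue of both groups had been frozen in liquid nitrogen.

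The chains of type IV collagen wind into trimers that join into a sheet, on which endothelial cells rest and which surrounds muscle, fat and Schwann cells. Their genes lie as head-to-head neighbours in mammals, COL4A1 beside COL4A2, COL4A3 beside COL4A4 and COL4A5 beside COL4A6. In the RefSeq gene table of the dog no protein-coding gene (0 in each case) lies between the members of any of these 3 pairs. The intervals of COL4A1 and COL4A2 overlap there, so no gene could lie between them. The COL4A1 and COL4A2 chains form the trimer found in almost every basement membrane. The COL4A3, COL4A4 and COL4A5 chains form the trimer of the glomerulus, whose loss causes Alport nephropathy in humans and dogs, and COL4A5 also joins COL4A6 in basement membranes of smooth muscle and of some epithelia. In the mitral leaflet, endothelium covers both faces and interstitial cells fill the matrix between them.

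Values are MAS5 probe set signals on a linear scale, and signals of different probe sets cannot be set against each other. The median signal of an array ranged from 124 to 191, and precision is limited by the number of arrays. Of the 14 probe sets, 7 were bright enough to be tested, meaning that at least 4 of 8 arrays lay above their own 40th percentile, and these belonged to 4 genes. 1 array stood apart. Control 2 had the lowest mean log2 signal of the markers of valve interstitial cells and fibroblasts (11.64, against 13.45 to 14.02 in the other controls) and the highest of the cardiac muscle markers (13.93, against 11.31 to 12.82), so differences are also given without that dog.

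COL4A1 signals were higher in every affected dog than in every control in all 3 tested probe sets of the gene. The brightest, 1603400_s_at, had signals of 12292, 8812, 7853 and 7252 in affected dogs 1 to 4, against 5164, 6669, 4803 and 3252 in controls 1 to 4. Affected 1, the Lhasa apso, was the highest and control 4 the lowest, and the gap between the groups lay between affected 4 and control 2. Signals averaged 9052 ± 2253 in affected dogs and 4972 ± 1403 in controls (SD, n = 4 each). On the log2 scale the difference was 0.88 ± 0.28 (SE), or 1.84 times as high with a 95% confidence interval from 1.20 to 2.82. It did not pass limma over all probe sets (unadjusted p = 0.00956, adjusted p = 0.521).

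The other bright probe sets of COL4A1 gave the same order of the groups. In 1587555_at the signals were 7484, 4901, 3978 and 3949 in affected dogs, against 2058, 3082, 2077 and 1285 in controls. This was the largest difference among the tested type IV collagen probe sets, 1.27 ± 0.32 on the log2 scale (SE), or 2.42 times as high (95% interval 1.48 to 3.94, limma adjusted p = 0.366). In 1582733_at the signals were 5714, 5123, 4343 and 3746 in affected dogs, against 3146, 3555, 2693 and 2068 in controls. Its log2 difference was 0.73 ± 0.25 (SE, limma adjusted p = 0.545). The 3 probe sets measure 1 gene in the same RNA and are not independent; across the 8 dogs their log2 signals correlated with a Pearson's r from 0.976 to 0.994. The suffix _s_at marks a probe set that can match more than 1 transcript, and the remaining 2 carry no such mark.

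COL4A2, the partner chain of COL4A1 in the trimer, had 1 probe set, 1582734_at, and also had higher signals in affected dogs. These were 8415, 6306, 5927 and 4082 in affected dogs 1 to 4, against 3750, 4326, 3653 and 2646 in controls 1 to 4. The groups overlapped by 1 dog on each side, since affected 4 lay below control 2. The log2 difference was 0.76 ± 0.27 (SE), or 1.69 times as high with a 95% interval from 1.11 to 2.57 (limma unadjusted p = 0.0188, adjusted p = 0.571).

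**Figure D1:**
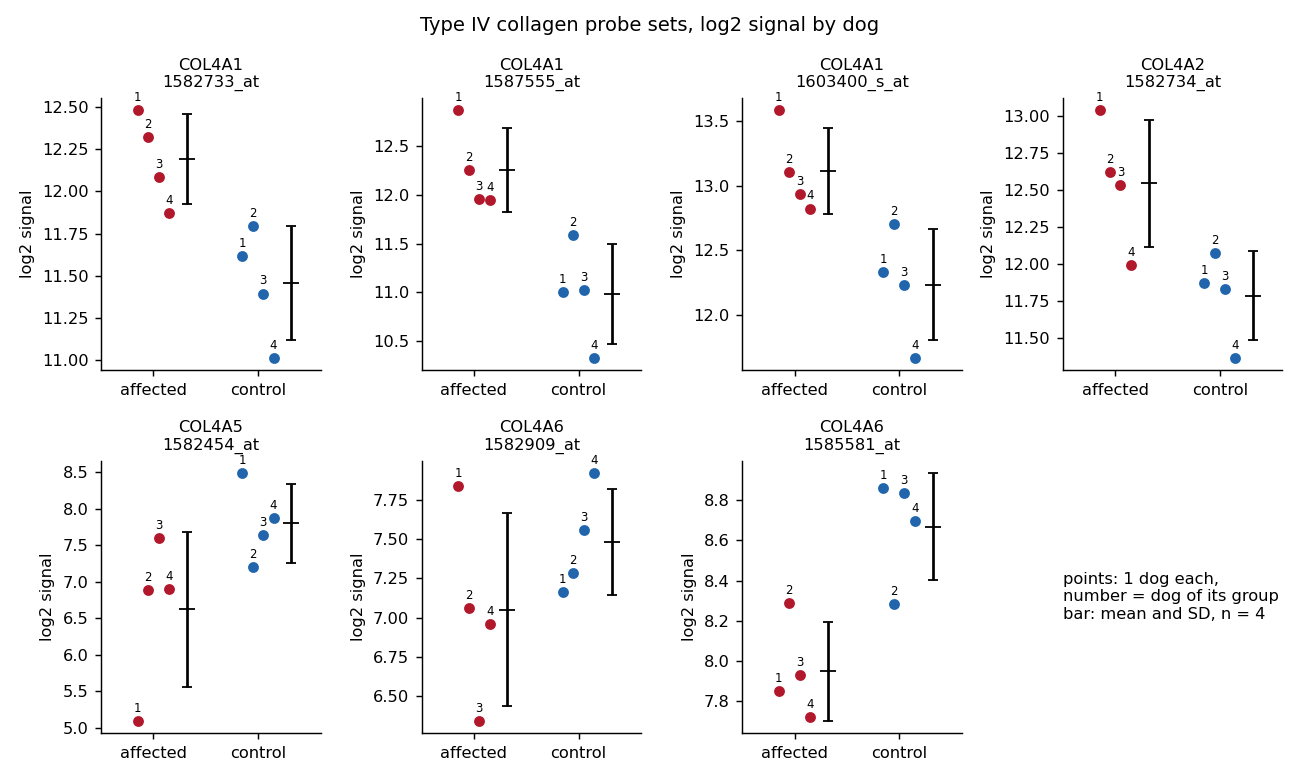
Log2 signal of the 7 tested type IV collagen probe sets, 1 panel each with its own axis (which does not start at 0), in affected dogs on the left and control dogs on the right. Each numbered point is 1 dog and each bar is the mean with its SD (n = 4). The 3 panels of COL4A1 show no overlap between the groups, that of COL4A2 overlaps by affected 4 and control 2, and the means of COL4A5 and COL4A6 lie lower in affected dogs.

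Read over the 7 tested probe sets, the 4 of COL4A1 and COL4A2 had an unadjusted limma p under 0.05 with higher signals in affected dogs, where 4.02% of the 14705 tested probe sets did so. 2 of the 7, both from COL4A5 and COL4A6, had an unadjusted p under 0.05 with lower signals, where 3.81% of all did; a difference above 0 of any size was found in 50.5% of all. The groups did not overlap in 3 of the 7, all higher and all of COL4A1, where 2.35% of all probe sets were higher without overlap and 2.31% lower. Counted by gene with its brightest probe set, 2 of 4 genes had such a p with higher signals and 2 with lower. In 1 of the 4 the groups did not overlap. The 3 COL4A1 probe sets are not independent, and the members were chosen with earlier results of these data known. These counts are therefore a description and no test. With the threshold of the study-wide test, an adjusted p of 0.05 in limma, 0 of the 7 were called, as was 0 of the 14705 (0.0%), so no type IV collagen chain is called as changed. Without control 2 the log2 differences were further from 0, at 1.04 for COL4A1 1603400_s_at, 0.85 for COL4A2, -1.39 for COL4A5 and -0.85 for the brighter probe set of COL4A6, with limma adjusted p from 0.309 to 0.540 for these.

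The signals of COL4A1 and COL4A2 moved together from dog to dog. Within the affected dogs both chains ran in the order affected 1, 2, 3 and 4, and within the controls both ran in the order control 2, 1, 3 and 4, from high to low. Over the 8 dogs Pearson's r was 0.963 (exact permutation p = 0.000769) and Spearman's rho 0.976 (exact permutation p = 0.000397), with adjusted values of 0.00154 and 0.000794 over the 2 pairs of genes examined. Without affected 1 and control 4, the dogs farthest from the median of COL4A1, r was 0.881 over 6 dogs (exact permutation p = 0.0389). The difference between the groups adds to these values. With each dog taken as its deviation from the mean of its own group, r was 0.908 over 8 dogs (exact permutation within groups, p = 0.00174, the smallest these permutations can give). No batch is given in the labels or files, and each group holds too few dogs for a correlation of its own.

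**Figure D2:**
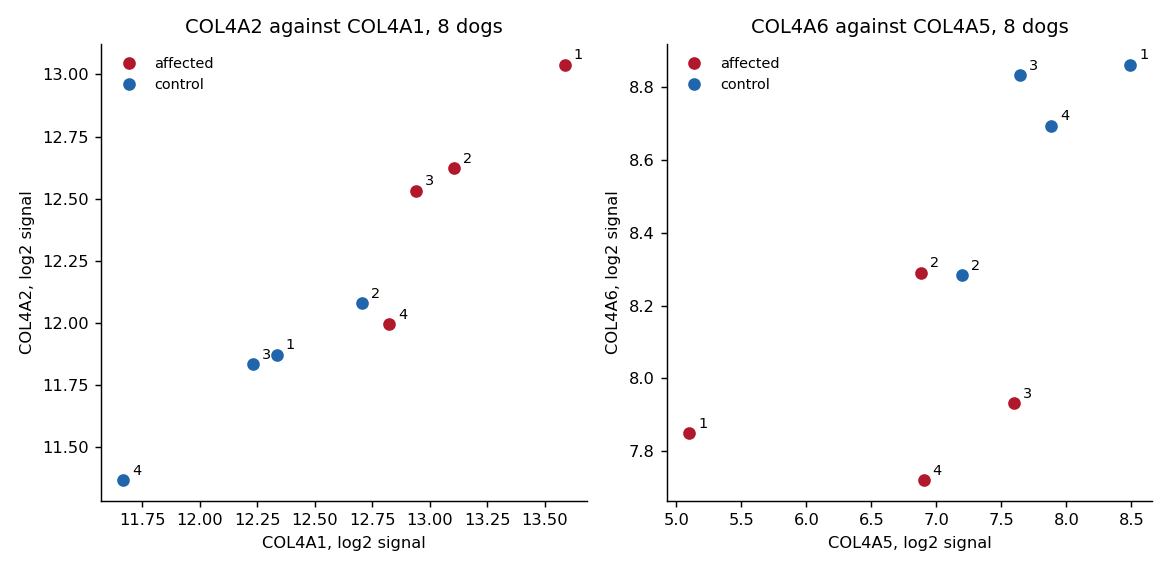
Log2 signals of the neighbouring genes COL4A1 and COL4A2 (left) and COL4A5 and COL4A6 (right), using the brightest tested probe set of each, with 1 numbered point per dog. COL4A1 and COL4A2 lie close to 1 line through both groups (r = 0.963, n = 8), while COL4A5 and COL4A6 scatter more widely and affected 1 is at the floor for COL4A5; axes do not start at 0.

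Whether both chains differed by the same amount was asked dog by dog, as log2 COL4A1 minus log2 COL4A2. That value was 0.55, 0.48, 0.41 and 0.83 in affected dogs and 0.46, 0.62, 0.39 and 0.30 in controls. It averaged 0.57 ± 0.18 in affected dogs and 0.44 ± 0.14 in controls (SD, n = 4 each). The gap of 0.12 between the groups was smaller than the spread within either (two-sided exact permutation p = 0.343 over 70 splits, adjusted p = 0.543 over 2 pairs), and 4 against 4 dogs cannot give a p under 0.0286. A difference between the chains was not detected. The size depends on the probe set, being 0.51 with 1587555_at (exact permutation p = 0.0571) and -0.024 with 1582733_at for COL4A1 (exact permutation p = 0.800), both of which were tried after the data had been seen.

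COL4A5 and COL4A6 had lower signals in affected dogs. COL4A6, in its brighter tested probe set 1585581_at, had signals of 231, 313, 244 and 211 in affected dogs, against 465, 312, 456 and 414 in controls. Only affected 2 and control 2 met, at nearly the same signal, and the other 3 dogs of each group stood clear of each other. The log2 difference was -0.72 ± 0.25 (SE), a ratio of 0.607 affected over control with a 95% interval from 0.414 to 0.889 (limma unadjusted p = 0.0154, adjusted p = 0.547). The other tested probe set of the gene, 1582909_at, overlapped widely, with 229, 133, 81.4 and 125 in affected dogs against 144, 156, 189 and 242 in controls. Its log2 difference was -0.43 ± 0.36 (SE, limma adjusted p = 0.757), and it was -0.20 without affected 3 and -0.69 without affected 1.

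COL4A5, the X-linked gene whose loss underlies the common form of Alport nephropathy, had 1 probe set, 1582454_at. Signals were 31.97, 118, 194 and 120 in affected dogs, against 360, 147, 200 and 236 in controls. Affected 1 lay below the floor of 34.2 (log2 of 5.10), under which signals were not told apart, and affected 3 lay above control 2. The log2 difference was -1.18 ± 0.52 (SE), with a 95% interval from -2.33 to -0.036 (limma unadjusted p = 0.0443, adjusted p = 0.628). It was -0.68 without affected 1. This probe set passed the brightness filter with 6 of 8 arrays, and the 4 controls alone would have carried it through, which favours probe sets that are higher in controls. COL4A5 and COL4A6 ran in a different order from each other within both groups. Over the 8 dogs r was 0.693 (exact permutation p = 0.0356, the same after adjustment over 2 pairs) and rho 0.762 (exact permutation p = 0.0368, likewise), r was 0.608 without control 1 and affected 1 (n = 6, exact permutation p = 0.219), and r was 0.388 for the deviations from the group means (exact permutation p = 0.368). Leaving out those dogs lowered r less than taking out the difference between the groups did. With that difference taken out, a relation between COL4A5 and COL4A6 was not detected. Log2 COL4A5 minus log2 COL4A6 averaged -1.33 ± 1.05 in affected dogs and -0.86 ± 0.37 in controls (SD, n = 4 each, exact permutation p = 0.543, adjusted p = 0.543 over 2 pairs).

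Set side by side, the chain pairs ran in opposite directions. The mean log2 signal of COL4A1 and COL4A2 minus that of COL4A5 and COL4A6 was 6.84, 5.28, 4.97 and 5.10 in affected dogs 1 to 4, against 3.43, 4.65, 3.79 and 3.23 in controls 1 to 4. The lowest affected dog lay above the highest control, control 2. The contrast was formed after the chains had been seen to differ in opposite directions, which by itself favours such a gap. The gap is therefore no separate result. The value of 6.84 also includes a COL4A5 signal of affected 1 that was raised to the floor. The size of these values reflects the probes and has no meaning of its own. Their difference between the groups, 1.77, is given without a test. Affected 1 was the highest of the 8 dogs for COL4A1 and COL4A2 and the lowest for COL4A5. Control 1 was the highest for COL4A5 and for COL4A6 in its brighter probe set, 1585581_at. In 1582909_at of COL4A6 the order differed, with control 4 the highest (242), affected 1 next (229) and control 1 the lowest control (144).

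COL4A3 and COL4A4 were dim and were not tested. The COL4A3 probe set ranged from 74.5 to 107 in affected dogs and from 51.1 to 92.8 in controls, above the floor in all 8 but above the 40th percentile of its array in only 1. The 4 probe sets of COL4A4 were below the floor in 12 of 16 affected values and 10 of 16 control values, and none of the 32 values exceeded the 40th percentile of its array. Whether these chains differed between the groups was not tested, and signals this dim are imprecise. Of the 2 further dim probe sets, 1584487_at of COL4A1 had 78.0, 136, 70.9 and 104 in affected dogs against 44.1, 44.9, 17.6 and 44.5 in controls, with no overlap, in the same direction as the bright probe sets of that gene. 1582908_at of COL4A6 had 50.7, 27.7, 32.4 and 117 in affected dogs and was below the floor in all 4 controls, which is opposite in direction to the brighter probe sets of that gene.

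The partners of type IV collagen in the basement membrane differed among themselves in direction. Laminins, trimers that form the second network of the membrane and bind cell receptors, had lower signals in affected dogs in 5 of 6 measured genes, with a median log2 difference of -0.39, where the median over 5438 genes was -0.0056 (2692 higher, 2746 lower). None of the 6 passed limma (smallest unadjusted p = 0.0648, adjusted p = 0.658). LAMC1, the gamma chain shared by most laminins, had signals of 935, 1041, 2474 and 1566 in affected dogs, against 2370, 1984, 2125 and 2256 in controls. Affected 1 and 2 were the lowest and affected 3 the highest of all 8, and the log2 difference was -0.64 ± 0.31 (SE). LAMB2 differed by -0.52 ± 0.29 and LAMA4, a chain of endothelial and muscle laminins, by -0.27 ± 0.21. LAMB2 was at -0.34 without control 2 and LAMA4 at -0.15 without control 3. The other 4 tested probe sets of LAMA4 ranged from -0.61 to 0.32. LAMA1 at -0.60 ± 0.88, LAMB1 at 0.13 ± 0.56 and LAMA3 at -0.025 ± 0.61 were moved by control 2, which was the lowest control for each and below the floor for LAMA1; without that dog they were -1.66, -0.49 and -0.68, and the median of the list was -0.59. Without control 3 that median was -0.15. The other tested probe set of a gene differed by 0.36 ± 0.49 for LAMA1, -0.29 ± 0.30 for LAMB1 and -0.47 ± 0.26 for LAMC1 (log2, SE). For LAMA1 and LAMB1 that is opposite in direction to the brightest probe set.

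Of 23 listed nidogens, proteoglycans and other basement membrane proteins, 10 were measured, 8 of them higher and 2 lower, with a median log2 difference of 0.20 (0.013 without control 2), and none passed limma (smallest adjusted p = 0.659). HSPG2 (perlecan), the heparan sulfate proteoglycan that bridges the laminin and collagen networks, had signals of 13960, 7505, 6151 and 3924 in affected dogs, against 5119, 3427, 6319 and 4325 in controls. Its values ran in the same order as those of COL4A1 among the affected dogs but overlapped those of the controls, and the log2 difference of 0.60 ± 0.37 (SE) was 0.27 without affected 1. The other tested probe set of HSPG2 differed by 0.81 ± 0.44 (log2, SE). Its affected dogs ran in another order, with signals of 554, 325, 349 and 135. SPARC, which binds collagen and assists its deposition in basement membranes, differed by 0.23 ± 0.28 in its brightest probe set and by -0.52 ± 0.37 and 0.64 ± 0.42 in the others. The first of these SPARC values was 0.015 without affected 1 and 0.010 with quantile normalization. SMOC2, a relative of SPARC, differed by -0.55 ± 0.27, and COL15A1, a collagen found next to basement membranes, by 0.11 ± 0.32 and by -0.13 without control 2.

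**Figure D3:**
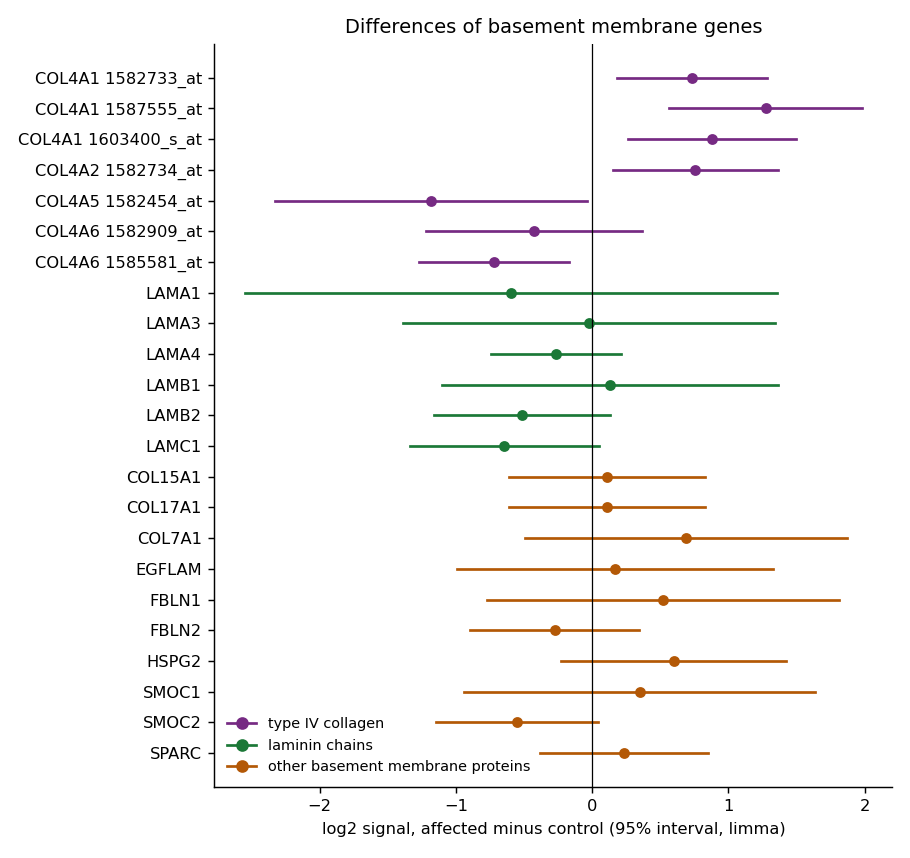
Log2 signal differences, affected minus control, with 95% intervals from limma (n = 4 per group) for the 7 type IV collagen probe sets and for the brightest probe set of each measured laminin and other basement membrane gene. The intervals of COL4A1 and COL4A2 lie above 0 and those of COL4A5 and of 1 COL4A6 probe set below it before adjustment, while the interval of each laminin and each other gene spans 0; no adjusted p passed 0.05.

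Genes that fold, modify, export and crosslink collagen were divided in direction, with 4 of 11 measured genes higher and 7 lower, a median log2 difference of -0.011 (-0.27 without control 2) and a smallest limma adjusted p of 0.680. SERPINH1 (HSP47), the chaperone of procollagen, differed by -0.064 ± 0.31. The prolyl hydroxylase subunits P4HA1 and P4HA2, which help to stabilise the triple helix, differed by -0.075 ± 0.46 and -0.0082 ± 0.50. Each of these 3 differences was smaller than its error. PPIB, a prolyl isomerase, differed by 0.60 ± 0.33, the chaperone HSP90B1 by 0.40 ± 0.23 and LOXL3, a lysyl oxidase relative, by 0.91 ± 0.56. Without control 2 PPIB and LOXL3 were both at 0.29.

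Of the receptors of basement membranes, 6 of 10 measured genes were higher and 4 lower, with a median log2 difference of 0.21 (0.0055 without control 2). 2 of them were higher without overlap, where 2.35% of all probe sets were, and none passed limma (smallest adjusted p = 0.545). Averaged over the 10 receptors, log2 signals ranged from 10.60 to 10.82 in affected dogs, against 10.31 to 10.55 in controls, without overlap. The lowest affected mean and the highest control mean were close, and how often such list means separate was not tested. ITGB4, the integrin subunit that binds laminin, had signals of 1937, 1060, 1190 and 1125 in affected dogs, against 848, 288, 857 and 608 in controls, a log2 difference of 1.11 ± 0.38 (SE). CD151, a tetraspanin that binds laminin-binding integrins, differed by 0.37 ± 0.20 with no overlap in its brightest probe set, and by 0.076 ± 0.22 and 0.0078 ± 0.26 in the others. CD44, a receptor of hyaluronan, differed by 0.81 ± 0.50 and by 0.42 without affected 4.

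Among proteases that cleave basement membranes and their inhibitors, 8 of 10 measured genes were higher and 2 lower, with a median log2 difference of 0.45, which turned to -0.059 without control 2. None passed limma (smallest adjusted p = 0.545), and the 3 genes with the smallest p were the inhibitor TIMP1 at 2.24 ± 0.76, the type IV collagenase MMP9 at 2.54 ± 0.92 and the cathepsin CTSB at 0.80 ± 0.29 (log2, SE). The other tested probe set of CTSB differed by 0.35 ± 0.30 (log2, SE), with overlap between the groups. Without control 2 TIMP1 was at 1.34. MMP9 signals were 978, 95.9, 134 and 1970 in affected dogs, against 129, 19.5, 104 and 47.0 in controls, so affected 1 and 4 were high, affected 2 lay below controls 1 and 3, and control 2 was below the floor. Of the other collagens, 6 of 11 measured genes were higher and 5 lower, with a median of 0.28 that turned to -0.52 without control 2, and the 3 genes with the smallest p were COL14A1 at -0.73 ± 0.35, COL22A1 at 0.37 ± 0.31 and COL5A1 at 0.58 ± 0.61 (log2, SE; limma adjusted p from 0.658 to 0.811). COL22A1 was at 0.15 without affected 2 and COL5A1 at -0.12 without control 2.

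The genes whose signals ran most like COL4A1 and COL4A2 were found by Pearson's r over the 8 dogs with the mean log2 signal of both chains, among 5436 other genes. The first was TIE1, a receptor tyrosine kinase of endothelial cells, with r = 0.974. Its log2 signals were 10.48, 10.12, 10.07 and 9.85 in affected dogs 1 to 4, against 9.84, 9.87, 9.70 and 9.18 in controls 1 to 4. Like COL4A2, it was highest in affected 1, lowest in control 4, and overlapped by affected 4 and control 2; its log2 difference was 0.48 ± 0.25 (SE, limma adjusted p = 0.666). The next were CD151 (r = 0.942), the phosphatase PPM1H (r = 0.938), MIEN1 (r = 0.925) and the tetraspanin TSPAN5 (r = 0.916). 7 genes in all had an r over 0.9. These values describe 8 points that share 1 array each, and genes chosen as the closest of many carry no test.

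Markers of endothelium also had higher signals in affected dogs. All 7 of the 15 listed markers that were measured were higher, where 50.5% of all probe sets were, and 2 of them were higher without overlap, where 2.35% of all probe sets were, with a median log2 difference of 0.99 and no marker past limma (smallest adjusted p = 0.410). Their mean log2 signal was 10.66, 10.61, 10.41 and 10.66 in affected dogs, against 9.96, 9.83, 9.65 and 9.52 in controls, without overlap. Their summed signal ranged from 16246 to 28426 against 8590 to 12111, and bright probe sets weigh most in such a sum. The list median of 0.99 is the brightest probe set of 1 marker, whose other tested probe set differed by -0.029 ± 0.28 (log2, SE). No marker was at the floor in any dog. Within the affected dogs the order was not that of the chains, since affected 4 was level with affected 1 for these markers and was the lowest affected dog for COL4A1 and COL4A2. Within the controls the markers ran in the order control 1, 2, 3 and 4, and the chains in the order control 2, 1, 3 and 4. TIE1, the gene nearest to the chains in pattern, is 1 of the 7 markers. The adhesion molecule PECAM1 differed by 1.01 ± 0.34, VWF, the clotting factor carrier, by 0.57 ± 0.52 and the VEGF receptor FLT1 by 0.49 ± 0.39. Without control 2 VWF was at 1.01 and FLT1 at 0.77, VWF was at 0.22 without affected 2, and the mean over all its probe sets put PECAM1 at 0.58 and FLT1 at 0.27. The part of endothelial cells in the COL4A1 and COL4A2 difference was not tested, and in whole tissue a change in the number of cells of a type and a change in RNA per cell cannot be told apart.

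Markers of macrophages and monocytes also separated the groups. All 12 measured genes of 14 were higher, where 50.5% of all probe sets were, and none passed limma (smallest adjusted p = 0.238). Their mean log2 signal ranged from 9.58 to 10.92 in affected dogs against 6.20 to 9.32 in controls. Their summed signal, in which bright probe sets again weigh most, ranged from 18235 to 41129 against 1219 to 16167. Their part was not tested either. The MARCO probe set, named after its values were seen, was below the floor in all 4 controls. Another marker of the list was below the floor in 3 controls. Such probe sets passed the brightness filter only or mainly through the affected dogs, which favours markers that are higher there. The remaining cell type lists overlapped between the groups. The mean log2 signal ranged from 10.12 to 11.57 in affected dogs against 9.96 to 11.59 in controls for 7 smooth muscle and pericyte markers, from 13.47 to 13.80 against 11.64 to 14.02 for 8 interstitial cell markers, and from 10.05 to 13.27 against 11.31 to 13.93 for 10 cardiac muscle markers. It ranged from 7.98 to 8.57 in affected dogs against 8.02 to 9.65 in controls for 3 Schwann cell and nerve markers, from 6.37 to 7.14 against 5.89 to 10.51 for 2 fat cell markers and from 7.30 to 8.71 against 7.34 to 7.87 for 2 markers of epithelium and mesothelium.

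**Figure D4:**
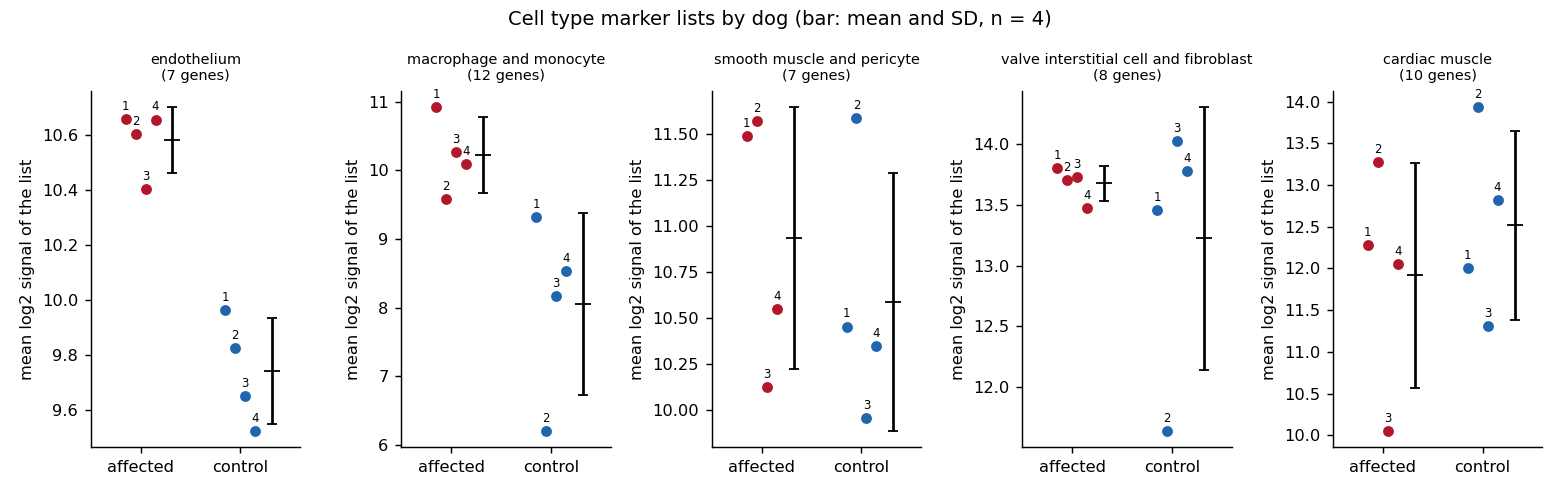
Mean log2 signal of 5 cell type marker lists in affected dogs (left in each panel) and control dogs (right), with 1 numbered point per dog and a bar for the mean and its SD (n = 4); axes do not start at 0. The endothelial and macrophage lists are higher in every affected dog than in every control, the other 3 lists overlap, and control 2 is the lowest dog for interstitial cell markers and the highest for cardiac muscle markers.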

How the data were processed

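Biotin-labelled RNA of 8 leaflets was hybridised to 1 array each, per the labels. The submitters' processing notes name MAS5, which turns the probes of a set into 1 linear signal (an intensity), and such signals are what the authors deposited. No version, detection call or filter is recorded there. Such signals are imprecise near background and differ between probe sets in brightness. Every array had a trimmed mean of 500.1 (without the lowest and highest 2%), so scaling had been done. That scaling takes total signal as alike.

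Of 23913 rows, 77 were array controls. The platform annotation gave 1 symbol for 10549 rows and several for 138; only the first were named, and all 6 type IV collagen genes were found in the RefSeq table for UU_Cfam_GSD_1.0. Sequences are not used here, and coordinates served only to count the genes between neighbouring type IV collagen genes. Scaling to 1 trimmed mean was repeated, signals under 34.2 (the 20th percentile over all arrays) were raised to that floor, and log2 was taken. Affected minus control was fitted over 14705 probe sets with limma 3.58.1 in R 4.3.3 (lmFit, eBayes with an intensity trend, two-sided, Benjamini-Hochberg adjustment, threshold 0.05). A gene is represented by its brightest tested probe set. Exact permutation tests ran over all 70 splits of the dogs, or over all pairings for correlations, in Python 3.11.15.

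The genes to name were every type IV collagen probe set, members of the laminin, basement membrane and folding lists, the 3 members with the smallest p of the receptor, protease and other collagen lists, the first 3 measured markers of a cell type, and the 5 genes nearest in pattern; MARCO was added after its values were seen. The members and lists were chosen with earlier results of these data known, so lists carry no set test. The fit was tested on simulated data. Replicate numbers do not pair dogs of different breeds. Alternatives were other normalizations, filters, floors and priors, array weights, a replicate block and leaving out each dog.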

Additional observations from a re-analysis of the deposited data

Results flagged for a closer look

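Within each group of 4 dogs, single values far from the other 3 were looked for (a gap to the nearest dog over 0.829 of the range) in 112 groups of values, and 14 were found. Chance alone gives about 1 in 20 groups of measured values, but that share does not hold for 5 of the 14, all of COL4A4, where the other 3 dogs lay at the floor and any value above it stands apart. Log2 signals are given, and 5.10 is the floor. 7 of the finds concern dim probe sets that were not tested. For COL4A4, affected 2 was at 6.14 in 1582906_at, 6.81 in 1589506_at and 6.82 in 1597765_at, with the other affected dogs between 5.10 and 5.35, and control 1 was at 6.06 in 1582906_at and 5.34 in 1589506_at and control 3 at 6.16 in 1582907_at, with the other controls at 5.10. For COL4A1 in 1584487_at, control 3 was at 5.10, the floor, and the other controls between 5.46 and 5.49. None of the tested type IV collagen probe sets held such a value.

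Control 2 accounted for 5 of the other 7. It was at 5.10 for LAMA1 with the other controls between 9.18 and 9.63, at 6.84 for LAMA3 (others 9.28 to 9.62), at 7.49 for LOXL3 (others 9.86 to 10.05), at 9.17 for P4HA2 (others 11.03 to 11.30) and at 9.19 for TIMP1 (others 12.62 to 13.01). Control 4 was at 11.77 for CD151 with the other controls between 11.87 and 11.89, and affected 1 at 14.49 for CTSB with the other affected dogs between 13.51 and 13.67.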

How the results depend on the processing

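No type IV collagen probe set passed under any of 22 alternatives (0 in each, 1 of them a threshold of 0.10), and each of the 7 kept its direction under all that were run. Leaving out 1 dog moved COL4A1 (1603400_s_at) between 0.69 and 1.04, COL4A2 between 0.59 and 0.94, COL4A5 between -1.51 and -0.68 and COL4A6 (1585581_at) between -0.85 and -0.65. The labels' numbers do not pair dogs: deviations of same-numbered dogs correlated between -0.12 and 0.41, and 2 of 8 dogs correlated best with their own number. With a replicate block 0 type IV collagen probe sets passed (adjusted p of 0.151 for 1587555_at, 0.266 for 1603400_s_at), while over all probe sets 4 passed instead of 0, and 1 passed without control 1. COL4A1 minus COL4A2 ranged from 0.034 to 0.18 without 1 dog, and was -0.024 with 1582733_at. Directions turned for uncalled genes. With array weights LAMB1 was -0.25 and COL15A1 -0.035, and with the mean of all probe sets LAMB1 was -0.081. Without 1 dog LAMB1 ranged from -0.49 to 0.42, LAMA3 from -0.68 to 0.32, COL15A1 from -0.13 to 0.31, SERPINH1 from -0.31 to 0.12, P4HA1 from -0.36 to 0.26, P4HA2 from -0.51 to 0.20 and COL5A1 from -0.12 to 0.97; the cause was not tested. The median of the laminins moved most without control 3 (-0.15), those of the other 5 lists without control 2, and that of the other collagens was -0.31 with array weights. Dim signals limit COL4A3 and COL4A4, and 4 dogs per group limit all sizes.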
